A study of Mus musculus with 9 samples.

Results

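The 10 genes described here encode receptors of the tumour necrosis factor (TNF) receptor superfamily that T cells carry: Tnfrsf9 (4-1BB), Tnfrsf4 (OX40), Tnfrsf18 (GITR), Tnfrsf8 (CD30), Tnfrsf1a (TNFR1), Tnfrsf1b (TNFR2), Cd27, Fas (CD95), Tnfrsf25 (DR3) and Tnfrsf14 (HVEM). They were taken by symbol from the 53679 gene identifiers of the count table, and all 10 passed the low-count filter that left 15348 genes for testing. RNA-seq of total RNA depleted of ribosomal RNA was done on CD8+ T cells of C57BL/6 mice that had been activated for 3 days. The 3 groups were Tc0 cells (untreated), Tc0 cells activated in the presence of coenzyme A (CoA, the acyl carrier that cells build from pantothenate) and Tc22 cells (untreated). Tc0 is the field's name for CD8+ T cells that were activated but not polarised, and Tc22 for CD8+ T cells polarised to make interleukin-22. Each group held 3 libraries, 1 from each of the mice 715, 725 and 728, so every mouse gave all 3 populations and was a term in every test. Mouse age and sex, the cytokines used for the Tc22 cells and the dose of CoA were not given in the sources used here.

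Receptors of this superfamily are bound by ligands of the TNF family that sit on antigen-presenting cells or on activated T cells themselves. Costimulatory members such as 4-1BB, OX40, GITR, CD30, CD27 and HVEM recruit TRAF adaptors and drive NF-kB, which prolongs the division and survival of activated T cells. Fas, TNFR1 and DR3 carry a death domain and can also engage caspase-8. CD27 and HVEM are present on resting T cells, while 4-1BB, OX40, GITR and CD30 are raised by activation.

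Total counts per library ran from 21841034 to 36254631. The labelled cell type was checked on Cd8a, which lay between 646 and 860.2 CPM (read counts relative to library size, scaled by the trimmed mean of M values) in the 9 libraries, against at most 1.38 CPM for Cd4. The Tc0 library of mouse 728 stood apart: its root mean square difference in log2 CPM over all genes tested was 0.876 and 0.746 to the other Tc0 libraries, against 0.402 to 0.616 for the other pairs within a group. It was also the highest Tc0 library for 5 of the 10 receptors (Tnfrsf18, Tnfrsf1a, Tnfrsf1b, Cd27 and Tnfrsf14). The matching share over all genes tested was not counted, so this is a description only. Among all genes tested, 24.5% passed an adjusted p of 0.05 in Tc0 with CoA against Tc0, 3.68% between Tc22 and Tc0 cells and 32% between Tc22 and CoA-treated Tc0 cells. The pair of comparisons with Tc0 share the Tc0 libraries.

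On the GRCm38 build (GENCODE M21), 7 of the 10 genes lie on chromosome 4. Tnfrsf4 (156013843 to 156016612, plus strand) and Tnfrsf18 (156026164 to 156028895, plus strand) are neighbours whose start sites are 12.3 kb apart. Tnfrsf8 (145267137 to 145315164, minus strand) and Tnfrsf1b (145213463 to 145246870, minus strand) start 68.3 kb apart. Tnfrsf9 (150914562 to 150946102, plus strand), Tnfrsf25 (152115934 to 152120119, plus strand) and Tnfrsf14 (154921933 to 154928563, minus strand) are the others on that chromosome. Cd27 (125232622 to 125237010, minus strand) and Tnfrsf1a (125349362 to 125362484, plus strand) lie 112 kb apart, start to start, on chromosome 6, and Fas (34290666 to 34327772, plus strand) lies on chromosome 19. Each value below is a count over the whole gene, exons of all transcripts together. An antisense gene, Gm16008, overlaps 414 of the 1524 exonic bases of Tnfrsf18; because no source used here says whether strand was counted, reads in that stretch cannot be told apart, and Gm16008 itself was listed at 1.82 to 5.92 CPM against 54.6 to 207 CPM for Tnfrsf18.

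The start sites of the genes were read for 3 motifs because several of the receptors moved together: the NF-kB consensus, AP-1 (TGANTCA) and the aryl hydrocarbon receptor element (TNGCGTG), on both strands, from 250 bases before to 50 after the start. All 10 genes matched a RefSeq promoter (GRCm38.p6); where a gene had several, the one nearest the start of the principal transcript was taken. Of 32851 promoters of that length, 8.46% held the NF-kB consensus, 7.81% the AP-1 motif and 5.07% the aryl hydrocarbon receptor element. The NF-kB consensus was found in Tnfrsf9, Tnfrsf8 and Tnfrsf25 and the AP-1 motif in Tnfrsf9, Tnfrsf8 and Fas, while Tnfrsf4, Tnfrsf18, Tnfrsf1a, Tnfrsf1b, Cd27 and Tnfrsf14 held none of the 3 in this window. The 250 bases before the start of the 4 genes with a match are shown, 5′ to 3′ on the gene's strand, with the motifs in capitals. Of the 5 receptors that rose in Tc22 cells, Tnfrsf9, Tnfrsf8 and Tnfrsf25 held a match and Tnfrsf4 and Tnfrsf18 held none, and Fas, which held one, did not pass the test there.
Tnfrsf9, chr4:150927749-150927998, plus strand: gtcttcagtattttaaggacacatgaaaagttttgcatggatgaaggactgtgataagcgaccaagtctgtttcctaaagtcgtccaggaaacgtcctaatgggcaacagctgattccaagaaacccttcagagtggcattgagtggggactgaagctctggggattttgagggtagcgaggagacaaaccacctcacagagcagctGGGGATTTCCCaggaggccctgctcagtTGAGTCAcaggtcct
Tnfrsf8, chr4:145315165-145315414, minus strand: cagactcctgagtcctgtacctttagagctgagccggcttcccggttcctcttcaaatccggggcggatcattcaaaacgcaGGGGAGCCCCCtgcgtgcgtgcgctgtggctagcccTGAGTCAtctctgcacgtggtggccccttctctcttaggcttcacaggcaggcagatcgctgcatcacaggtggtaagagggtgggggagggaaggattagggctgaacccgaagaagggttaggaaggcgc
Tnfrsf25, chr4:152116093-152116342, plus strand: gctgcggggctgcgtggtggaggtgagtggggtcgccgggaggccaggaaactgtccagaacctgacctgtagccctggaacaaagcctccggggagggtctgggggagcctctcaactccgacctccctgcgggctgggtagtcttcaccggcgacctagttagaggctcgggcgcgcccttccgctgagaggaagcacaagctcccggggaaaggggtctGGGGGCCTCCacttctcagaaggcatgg
Fas, chr19:34290409-34290658, plus strand: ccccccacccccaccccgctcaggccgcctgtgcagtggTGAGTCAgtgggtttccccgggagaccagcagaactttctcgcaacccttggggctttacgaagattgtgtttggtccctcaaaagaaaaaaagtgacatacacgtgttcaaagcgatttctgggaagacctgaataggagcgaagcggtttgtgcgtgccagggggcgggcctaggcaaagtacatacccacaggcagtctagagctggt
In Tnfrsf9 a pair of overlapping NF-kB matches begins 43 and 42 bases before the start and the AP-1 match 15 bases before it; another annotated Tnfrsf9 transcript begins inside the window shown. In Tnfrsf8 the overlapping NF-kB matches begin at -168 and -167 and the AP-1 match at -132. Tnfrsf25 held an NF-kB match at -28 and another, of the same letters, at +37, outside the stretch shown. The AP-1 match of Fas began at -211. Tnfrsf9 and Tnfrsf25 each had another RefSeq promoter, which held none of the 3 motifs, so their matches depend on the start site taken. The RefSeq starts of Tnfrsf4, Tnfrsf18 and Tnfrsf14 lay 148, 158 and 125 bases from the principal start. The Tnfrsf4 window ended at 156013744, before the annotated start of the gene at 156013843. For these genes the absence of a match also depends on the start site taken. A match of letters is a description of the sequence and not evidence that a factor binds there.

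Tc22 cells held more transcript of 5 receptors than Tc0 cells of the same mice: Tnfrsf25, Tnfrsf8, Tnfrsf4, Tnfrsf18 and Tnfrsf9 rose, by 3.44-, 2.40-, 2.04-, 2.01- and 1.46-fold. None of the 10 fell (edgeR: 0 with a lower level at an unadjusted p under 0.05, and 0 in DESeq2). Over all genes tested 2.48% were called higher and 1.21% lower in this comparison. The CPM ranges did not overlap for 4 of these 5 (all but Tnfrsf18), as was so for 6.55% of all genes on the higher and 5.98% on the lower side. The median log2 fold change was 0.32 over the 10 receptors and -0.01 over all genes tested. CoA raised 3 receptors in Tc0 cells, Tnfrsf8 by 2.55-fold, Tnfrsf25 by 1.80-fold and Tnfrsf4 by 1.56-fold, where 12.5% of all genes tested were called higher and 12% lower; the medians were 0.18 and -0.01. The call of Tnfrsf8 held under all 15 alternatives to this processing and that of Tnfrsf4 under 12. That of Tnfrsf25 held under 5 and was missed in DESeq2. The same 3 were the receptors whose CPM ranges did not overlap, against 14.2% of all genes on the higher and 13.6% on the lower side. None was called lower (1 at an unadjusted p under 0.05, Tnfrsf1a, and 0 in DESeq2). These are changes of RNA in bulk cultures, in which a change in the share of cells with a receptor and a change in RNA per cell cannot be told apart.

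**Figure D1:**
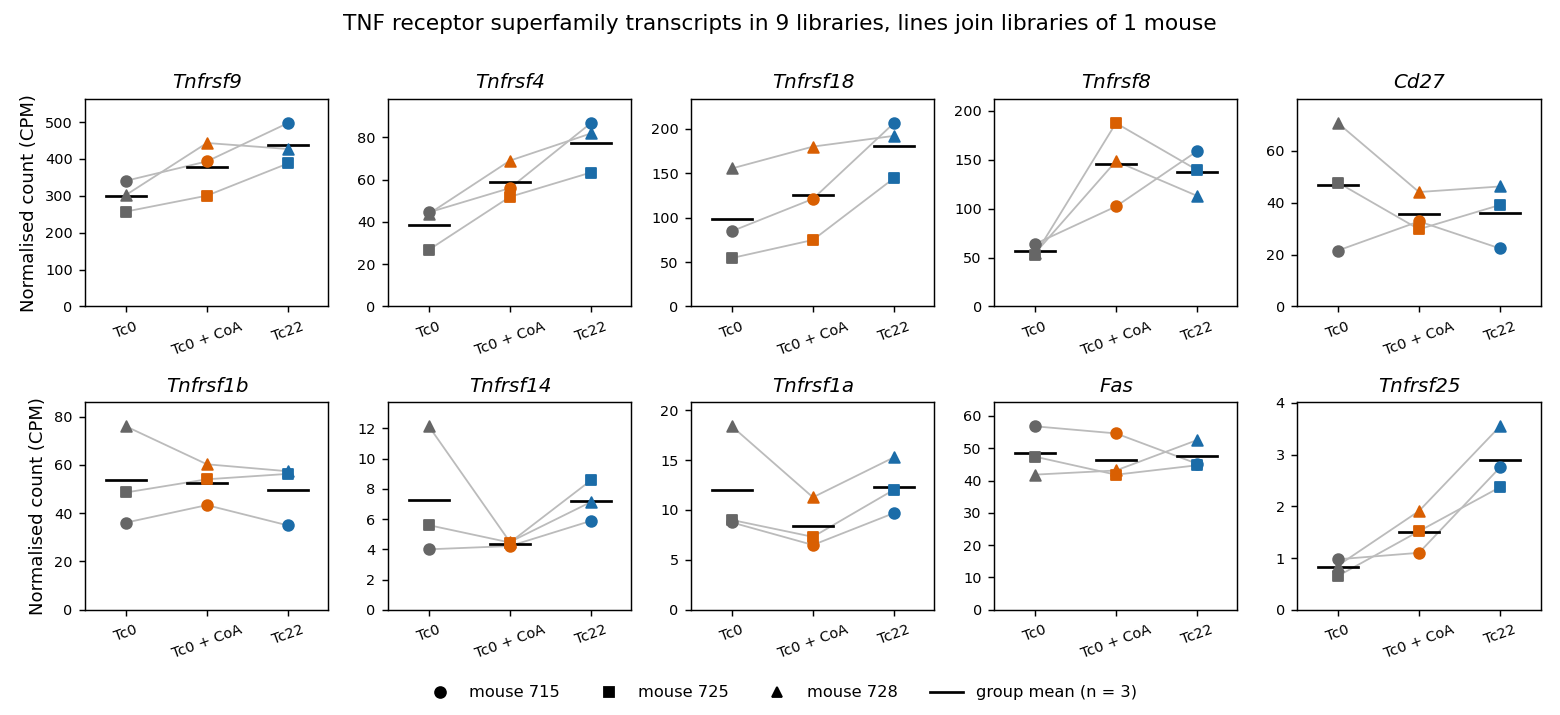
Normalised counts (CPM, y axes from 0, 1 scale per gene) of the 10 receptor genes in Tc0, Tc0 with CoA and Tc22 libraries; grey lines join the libraries of 1 mouse, symbols mark the mouse and black bars the group mean (n = 3). In Tnfrsf25 and Tnfrsf8 all Tc0 libraries lie under those of the other groups, whereas Fas and Tnfrsf1b overlap in all groups.

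Among the inducible costimulators, Tnfrsf8 (CD30) had the narrowest spread in Tc0 cells (1.22-fold from lowest to highest) and the smallest p with CoA of the 10. Its level was 63.9, 52.6 and 54.3 CPM in the Tc0 libraries of mice 715, 725 and 728, 102, 188 and 149 CPM with CoA, and 159, 139.7 and 113 CPM in Tc22 cells. All 6 libraries of the latter groups lay above all Tc0 libraries. The log2 fold change with CoA was 1.35 (SE 0.21, adjusted p = 0.00348) and 1.26 in Tc22 cells (SE 0.20, adjusted p = 0.00928). With CoA the call held under all 15 alternatives. In Tc22 cells it was missed when Tc0 of mouse 725 (1.11, adjusted p = 0.0524) or Tc22 of mouse 715 (1.06, adjusted p = 0.0518) was left out. Between Tc22 cells and Tc0 cells with CoA the groups overlapped, the difference was -0.09 (95% interval -0.54 to 0.36, adjusted p = 0.771), and mouse 715 was higher in Tc22 cells while mice 725 and 728 were lower. Without the CoA library of mouse 715 that difference was -0.40 and passed (adjusted p = 0.0337).

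Tnfrsf4 (OX40), whose signal sustains T cells after priming, rose in both comparisons with Tc0. It was at 44.5, 26.8 and 43.8 CPM in Tc0 cells, 56.0, 51.8 and 68.9 CPM with CoA, and 86.7, 63.3 and 81.8 CPM in Tc22 cells. Mouse 725 had the lowest library in every group, and each mouse was higher with CoA than in Tc0 and higher again in Tc22. The log2 fold change was 0.64 with CoA (SE 0.13, adjusted p = 0.00854) and 1.03 in Tc22 cells (SE 0.13, adjusted p = 0.00308). Tc22 cells also stood above Tc0 cells with CoA by 0.38 (SE 0.13, adjusted p = 0.0430), although these groups overlapped. The Tc22 call was missed only when mouse was left out of the model (adjusted p = 0.0791). The CoA call was missed there as well (adjusted p = 0.0979), and on leaving out Tc0 of mouse 725 (0.52, adjusted p = 0.0536) or CoA of mouse 728 (0.60, adjusted p = 0.0524). The direct difference was missed without mouse in the model (adjusted p = 0.242) and without any 1 of the 6 libraries compared (0.25 without the CoA library of mouse 715, adjusted p = 0.157; the others 0.35 to 0.49, with adjusted p = 0.0531 to 0.169).

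Tnfrsf18 (GITR), the neighbour of Tnfrsf4, spanned 2.85-fold over the Tc0 libraries. Its level was 84.9, 54.6 and 156 CPM in Tc0 cells, 121, 74.9 and 180.1 CPM with CoA, and 207, 144 and 192 CPM in Tc22 cells. The Tc0 library of mouse 728 reached above the Tc22 library of mouse 725, so the groups overlapped although each mouse was higher in its Tc22 library. Within mice the log2 differences between Tc22 and Tc0 were 1.28, 1.40 and 0.31 for mice 715, 725 and 728. The fitted log2 fold change was 1.01 (SE 0.19, adjusted p = 0.0179), and 0.38 with CoA (SE 0.18, 95% interval -0.03 to 0.79, adjusted p = 0.160). The CoA difference passed when Tc0 of mouse 728 (0.62, adjusted p = 0.0434) or Tc22 of mouse 728 (0.39, adjusted p = 0.0290) was left out. Against Tc0 cells with CoA, Tc22 cells were higher by 0.63 (SE 0.19, adjusted p = 0.0278).

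For Tnfrsf18 in Tc22 against Tc0, the fit without mouse gave 0.88 (adjusted p = 0.521), and the call was missed when Tc0 of mouse 715 (0.91, adjusted p = 0.0843) or 725 (0.89, adjusted p = 0.109) or Tc22 of mouse 715 (0.91, adjusted p = 0.0918) or 725 (0.82, adjusted p = 0.101) was left out. Its direct difference from Tc0 with CoA was missed without mouse in the model (adjusted p = 0.384) and without the CoA library of mouse 715, 725 or 728 or Tc22 of mouse 715 or 725 (0.44 to 0.70, with adjusted p = 0.0649 to 0.169).

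Tnfrsf9 (4-1BB), an activation marker of CD8+ T cells whose signal supports their survival, had the highest level of the receptors. It was at 341, 257 and 302 CPM in Tc0 cells, 394, 301 and 443 CPM with CoA, and 497, 388 and 427 CPM in Tc22 cells. The Tc22 libraries lay above the Tc0 libraries, and the rise was of similar size in each mouse (0.55, 0.59 and 0.50 on the log2 scale for mice 715, 725 and 728). The fitted difference was 0.55 (SE 0.11, adjusted p = 0.0295). It was missed without mouse in the model (0.54, adjusted p = 0.297), and when Tc0 of mouse 715 (adjusted p = 0.0895) or 725 (adjusted p = 0.140) or Tc22 of mouse 715 (adjusted p = 0.180) or 725 (adjusted p = 0.186) was left out. With CoA the difference was 0.33 (SE 0.11, adjusted p = 0.0578), higher in 3 of 3 mice but just short of the threshold. That difference passed with the library size as the only scaling (adjusted p = 0.0460), with DESeq2 size factors (adjusted p = 0.0467), in DESeq2 (adjusted p = 0.0394) and without the CoA library of mouse 715 (0.41, adjusted p = 0.0397). Between Tc22 cells and Tc0 cells with CoA it was 0.21 (95% interval -0.04 to 0.47, adjusted p = 0.175).

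Cd27, a receptor of naive and memory T cells, was not called in any comparison. Its level was 21.6, 47.8 and 70.8 CPM in Tc0 cells, 32.8, 29.8 and 44.2 CPM with CoA, and 22.4, 39.2 and 46.3 CPM in Tc22 cells. The Tc0 libraries alone spanned 3.28-fold, wider than any difference between group means. The log2 fold change was -0.25 with CoA (95% interval -0.76 to 0.25, adjusted p = 0.449) and -0.31 in Tc22 cells (95% interval -0.81 to 0.19, adjusted p = 0.439). The mice did not move together: with CoA, mouse 715 was higher and mice 725 and 728 were lower. Without the CoA library of mouse 715 the CoA difference was -0.58 and passed (adjusted p = 0.0265).

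Tnfrsf14 (HVEM), which binds LIGHT, BTLA and CD160, was 3.04-fold higher in the Tc0 library of mouse 728 than in that of mouse 715, and was not called in any comparison. It was at 3.998, 5.596 and 12.1 CPM in Tc0 cells, 4.21, 4.45 and 4.48 CPM with CoA, and 5.88, 8.56 and 7.13 CPM in Tc22 cells. The CoA libraries lay within 1.06-fold of each other, and all Tc22 libraries lay above them. The difference of Tc22 cells from Tc0 cells with CoA was 0.70 (SE 0.29, adjusted p = 0.0928). It passed without the low-count filter (adjusted p = 0.0284), with those groups alone in the model (adjusted p = 0.0186) and with Tc0 of mouse 728 left out (0.70, adjusted p = 0.0123). Against Tc0 the differences were -0.62 with CoA (95% interval -1.28 to 0.04, adjusted p = 0.153) and 0.08 in Tc22 cells (95% interval -0.56 to 0.72, adjusted p = 0.892).

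Neither TNF receptor was called in either comparison with Tc0. Tnfrsf1b (TNFR2), the costimulatory TNF receptor of T cells, was at 36.1, 48.6 and 76.0 CPM in Tc0 cells, 43.4, 54.1 and 60.3 CPM with CoA, and 34.9, 56.3 and 57.4 CPM in Tc22 cells. Mouse 715 was lowest and mouse 728 highest in each group, and the groups overlapped. Its differences were 0.02 with CoA (95% interval -0.29 to 0.33, adjusted p = 0.932), -0.09 in Tc22 cells (95% interval -0.40 to 0.23, adjusted p = 0.750) and -0.11 between Tc22 cells and CoA-treated cells (95% interval -0.42 to 0.21, adjusted p = 0.595).

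Tnfrsf1a (TNFR1), a death-domain receptor, had its lowest values with CoA. It was at 8.75, 9.0 and 18.4 CPM in Tc0 cells, 6.49, 7.30 and 11.3 CPM with CoA, and 9.69, 12.03 and 15.3 CPM in Tc22 cells. Every mouse was lower with CoA than in either other group, though the groups overlapped because mouse 728 was high throughout. The CoA difference of -0.49 fell just short of the threshold (SE 0.16, adjusted p = 0.0518) and passed with Tc22 of mouse 728 left out (adjusted p = 0.0490). Tc22 cells were higher than Tc0 cells with CoA by 0.58 (SE 0.16, adjusted p = 0.0220) and did not pass against Tc0 (0.09, 95% interval -0.27 to 0.45, adjusted p = 0.773). The direct call was missed without mouse in the model (adjusted p = 0.288), and when CoA of mouse 725 (adjusted p = 0.0767) or 728 (adjusted p = 0.104) or Tc22 of mouse 715 (adjusted p = 0.0823) or 725 (adjusted p = 0.141) was left out.

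Tnfrsf25 (DR3), the death-domain receptor of TL1A, was the least abundant of the 10 and had the largest fold change in Tc22 cells. It was at 0.976, 0.653 and 0.854 CPM in Tc0 cells, 1.10, 1.52 and 1.91 CPM with CoA, and 2.75, 2.37 and 3.55 CPM in Tc22 cells. These values rest on 14 to 111 counts per library. The 3 groups did not overlap, Tc22 libraries lying above those with CoA and these above Tc0. The log2 fold change of Tc22 cells was 1.78 (SE 0.26, adjusted p = 0.00590) against Tc0, which held under all 15 alternatives, and 0.93 (SE 0.25, adjusted p = 0.0188) against Tc0 with CoA.

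The rise of Tnfrsf25 with CoA was 0.85 (SE 0.27, adjusted p = 0.0485), close to the threshold. That call was missed without mouse in the model (adjusted p = 0.106), in DESeq2 (adjusted p = 0.116), with those groups alone (adjusted p = 0.0952), without the Tc0 or CoA libraries of mice 725 and 728 in turn (0.68 to 0.76, with adjusted p = 0.142 to 0.202) and without any 1 of the Tc22 libraries (0.84 to 0.85, with adjusted p = 0.0621 to 0.0733). The direct difference of Tc22 cells was missed without mouse in the model (adjusted p = 0.0563) and without the CoA library of mouse 715 or 728 or any 1 of the Tc22 libraries (0.71 to 1.02, with adjusted p = 0.0605 to 0.0649).

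Fas, which delivers the death signal of Fas ligand, was the most even member. It was at 56.8, 47.4 and 41.8 CPM in Tc0 cells, 54.6, 41.8 and 43.1 CPM with CoA, and 45.2, 44.7 and 52.5 CPM in Tc22 cells. All groups overlapped. The intervals were -0.37 to 0.24 with CoA and -0.33 to 0.28 in Tc22 cells on the log2 scale, around -0.07 (adjusted p = 0.759) and -0.02 (adjusted p = 0.937).

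**Figure D2:**
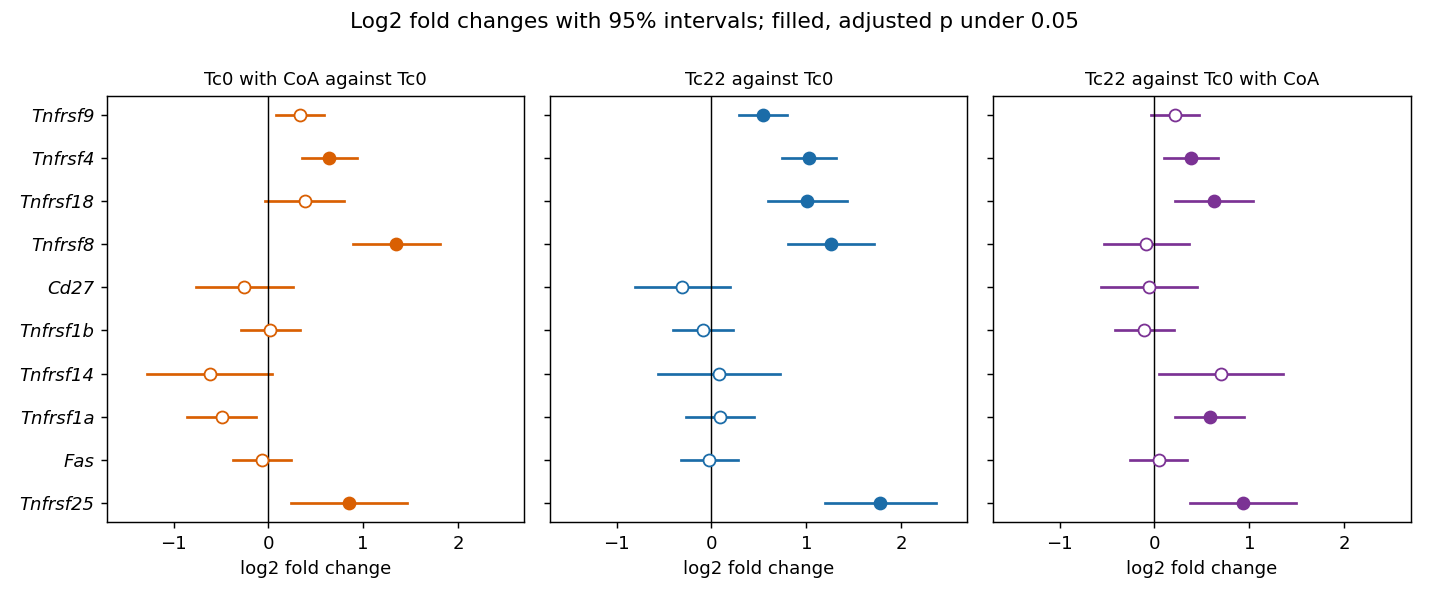
Log2 fold changes (x axes, points) with 95% intervals (bars) of the 10 receptor genes in the 3 comparisons; filled points had an adjusted p under 0.05 in edgeR. Filled points are all to the right of 0: 3 with CoA, 5 in Tc22 against Tc0 and 4 between Tc22 and CoA-treated Tc0 cells.

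Tc22 cells were set against Tc0 cells with CoA directly, since the CoA-treated and Tc22 cells each differed from Tc0. Tnfrsf25, Tnfrsf18, Tnfrsf1a and Tnfrsf4 were higher in Tc22 cells, and none of the 10 was lower (0 at an unadjusted p under 0.05, and 0 in DESeq2). Over all genes tested 16% were called higher and 16% lower here, and none of these 4 calls held without mouse in the model. Tnfrsf8 and Tnfrsf9 did not pass in this comparison, and their intervals span 0. The CPM ranges did not overlap for Tnfrsf25 and Tnfrsf14, both higher in Tc22 cells, where 20.2% of all genes were apart on the higher and 21.7% on the lower side.

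The order of the receptors was read from levels per kilobase of exon. Tnfrsf9 was first in every group (110.3 ± 15.3 CPM per kb in Tc0, 139 ± 26.6 with CoA and 161 ± 20.4 in Tc22, SD, n = 3). Tnfrsf18 came next (64.5 ± 33.97, 82.3 ± 34.6 and 119 ± 21.3 CPM per kb), then Tnfrsf4 (28.1 ± 7.33, 43.2 ± 6.54 and 56.6 ± 9.02 CPM per kb). In Tc22 cells the ranges of these 3 did not overlap, while in Tc0 cells those of Tnfrsf9 and Tnfrsf18 did. With CoA the range of Tnfrsf9 overlapped that of Tnfrsf18, Tnfrsf18 that of Tnfrsf4, and Tnfrsf4 that of Tnfrsf8. Tnfrsf8 had rank 6 in Tc0 cells (16.4 ± 1.77 CPM per kb), where its range overlapped that of Cd27, and rank 4 with CoA (42.3 ± 12.3) and in Tc22 cells (39.7 ± 6.63), where its range lay above that of Fas. Fas stayed at 23.6 ± 3.67, 22.6 ± 3.41 and 23.0 ± 2.11 CPM per kb. Tnfrsf14 and Tnfrsf1a lay between 3.05 and 5.04 CPM per kb on average and overlapped in every group, and Tnfrsf25 was last at 0.363 ± 0.0716, 0.663 ± 0.177 and 1.27 ± 0.264 CPM per kb.

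**Figure D3:**
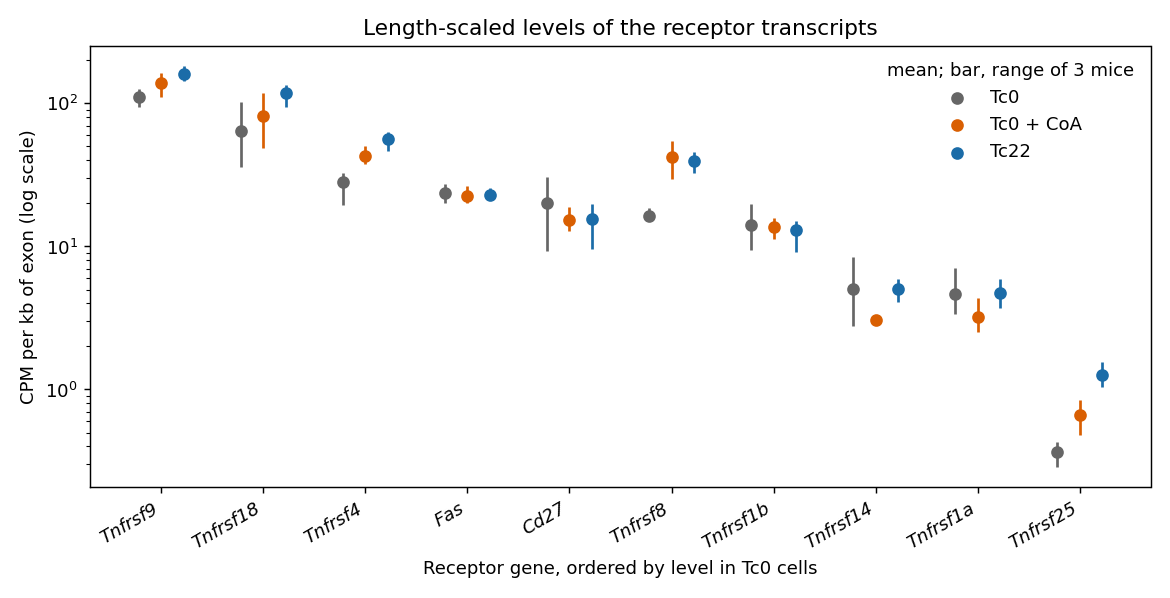
Mean level (points, CPM per kb of exon, log scale) and range over 3 mice (bars) of each receptor in the 3 groups, ordered by the Tc0 mean. Tnfrsf9 leads in all groups and Tnfrsf25 is last; Tnfrsf8 stands at 16.4 CPM per kb in Tc0 and at 42.3 and 39.7 with CoA and in Tc22.

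Profiles over the 9 libraries were compared by the root mean square difference of log2 CPM after centring each gene on its mean. Among the 10 receptors the closest were Tnfrsf9 and Tnfrsf4 (0.25), Tnfrsf1b and Cd27 (0.26) and Tnfrsf1a and Tnfrsf14 (0.27), and the farthest were Cd27 and Tnfrsf25 (0.99). Among genes of at least 5 CPM, the one most like Tnfrsf9 was Tulp3 (0.13), that most like Tnfrsf4 was Ggt7 (0.12), that most like Tnfrsf18 was Adam15 (0.20) and that most like Tnfrsf8 was Gstt3 (0.27). Tnfrsf25 was nearest to Ifitm2 (0.26) and Relb (0.30), and Cd27 to Fam189b (0.14), Rgs3 (0.17) and Irf1 (0.20). All values share the same libraries and depth, so they describe likeness only.

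Several ligand genes of the receptors were called higher with CoA, a count that depended on the libraries used. Of 13 ligands and partners listed, 11 were tested. With CoA 6 rose (Tnfsf4, Tnfsf14, Tnfsf15, Tnfsf8, Tnf and Tnfsf9) and 0 fell (edgeR; 2 lower at an unadjusted p under 0.05, and 0 in DESeq2), with a median log2 fold change of 0.70. In Tc22 cells Ltb and Tnfsf14 rose, Fasl fell and the median was -0.03. Directly, 1 of the 11 was higher and 6 were lower in Tc22 cells than in Tc0 cells with CoA, with a median of -0.58. The medians over all genes tested were -0.01, -0.01 and 0.01, and the shares called higher and lower were 12.5% and 12% with CoA, 2.48% and 1.21% in Tc22 cells and 16% each directly. The 6 calls with CoA became 3 on leaving out Tc0 of mouse 725 or CoA of mouse 725 or 728 (3 to 8 over the libraries), and the 3 calls in Tc22 cells became 1 on leaving out Tc0 or Tc22 of mouse 715 or 725. With mouse out of the model the calls numbered 3, 1 and 5.

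Tnfsf4, the gene of OX40 ligand, had the largest fold change with CoA among the ligands tested. It was at 23.0, 4.80 and 4.49 CPM in Tc0 cells, 40.1, 37.6 and 25.3 CPM with CoA, and 11.6, 3.70 and 2.85 CPM in Tc22 cells. The CoA libraries lay above all others, and mouse 715 stood high in Tc0 and Tc22. The log2 fold change was 2.10 with CoA (SE 0.35, adjusted p = 0.00456), which the fit without mouse did not pass (1.67, adjusted p = 0.151), and -2.83 in Tc22 against Tc0 with CoA (SE 0.35, adjusted p = 0.000854), which held under all 15 alternatives. Against Tc0 the Tc22 value was -0.73 (SE 0.34, adjusted p = 0.256).

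Tnfsf14, the gene of the HVEM ligand LIGHT, was at 6.64, 4.10 and 5.40 CPM in Tc0 cells, 12.9, 10.4 and 13.3 CPM with CoA, and 11.1, 7.91 and 8.09 CPM in Tc22 cells. All libraries of the other groups lay above the Tc0 libraries. The rise with CoA was 1.20 (SE 0.16, adjusted p = 0.00248) and held under all 15 alternatives. In Tc22 cells it was 0.75 (SE 0.16, adjusted p = 0.0343), missed without mouse in the model (adjusted p = 0.274), with those groups alone (adjusted p = 0.0511) and on leaving out Tc0 or Tc22 of mouse 715 or 725, or CoA of mouse 728 (0.68 to 0.82, with adjusted p = 0.0680 to 0.208). The other HVEM partners, Btla and Cd160, did not pass against Tc0 (0.22 and 0.65 with CoA, -0.31 and -0.35 in Tc22 cells, adjusted p from 0.104 to 0.455). Both were called lower in Tc22 cells than in Tc0 cells with CoA. Over the alternatives the difference was -0.68 to -0.36 for Btla and -1.26 to -0.59 for Cd160. These calls held under 10 and 13 of 15 alternatives.

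Tnfsf8, the gene of CD30 ligand, was at 83.6, 48.6 and 30.8 CPM in Tc0 cells, 96.6, 94.97 and 73.3 CPM with CoA, and 86.0, 64.2 and 59.2 CPM in Tc22 cells. Its rise with CoA of 0.79 (SE 0.18, adjusted p = 0.0137) was missed without mouse in the model (adjusted p = 0.183), and on leaving out Tc0 of mouse 725 (adjusted p = 0.0718) or CoA of mouse 725 (adjusted p = 0.0682) or 728 (adjusted p = 0.0699). In Tc22 cells the difference was 0.44 (SE 0.18, adjusted p = 0.206). So the ligand and its receptor Tnfrsf8 both rose with CoA, and in Tc22 cells the receptor passed the test and the ligand did not.

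Tnfsf15, the gene of the DR3 ligand TL1A, was at 0.315, 0.513 and 0.248 CPM in Tc0 cells, 1.02, 1.05 and 1.06 CPM with CoA, and 0.442, 0.356 and 0.192 CPM in Tc22 cells. Its rise with CoA was 1.59 (SE 0.37, adjusted p = 0.0137), missed on leaving out Tc0 of mouse 715 (1.44, adjusted p = 0.0527) or CoA of mouse 728 (1.304, adjusted p = 0.0805). Tc22 cells were lower than Tc0 cells with CoA by a log2 difference of -1.68 (SE 0.36, adjusted p = 0.00754). These values rest on 9 to 11 counts per library in Tc0 cells, 24 to 29 with CoA and 6 to 13 in Tc22 cells.

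Tnfsf9, the gene of 4-1BB ligand, was listed at 2.42 to 3.49 CPM in Tc0 cells, 4.23 to 4.74 CPM with CoA and 3.08 to 3.94 CPM in Tc22 cells. The rise with CoA was 0.66 (SE 0.19, adjusted p = 0.0334). It was missed under 9 of 15 alternatives (0.51 to 0.71, with adjusted p = 0.0513 to 0.138): without mouse in the model, in DESeq2, with those groups alone, and without the Tc0 or CoA library of mouse 725 or 728 or the Tc22 library of mouse 715 or 725. Tnfsf18 and Cd70, the ligand genes of GITR and CD27, did not pass the low-count filter. Cd70 was at 0.311 to 0.949 CPM with CoA, at most 0.283 CPM in Tc0 cells and at most 0.0680 CPM in Tc22 cells.

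Tnf, the cytokine bound by both TNF receptors, was at 30.8, 23.3 and 32.5 CPM in Tc0 cells, 39.7, 55.0 and 46.6 CPM with CoA, and 28.4, 29.0 and 27.6 CPM in Tc22 cells. It rose with CoA by 0.70 (SE 0.16, adjusted p = 0.0140), missed on leaving out Tc0 of mouse 725 (0.49, adjusted p = 0.0746) or the CoA library of mouse 725 (0.52, adjusted p = 0.0749) or 728 (0.75, adjusted p = 0.0544). In Tc22 cells it was lower than with CoA by a log2 difference of -0.73 (SE 0.16, adjusted p = 0.00845), missed without the CoA library of mouse 725 (-0.54, adjusted p = 0.0543). Lta did not pass in any comparison (0.70 with CoA, adjusted p = 0.0506).

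Fasl, the gene of Fas ligand, fell in Tc22 cells, where Fas did not pass the test. It was at 11.8, 11.98 and 7.98 CPM in Tc0 cells, 6.83, 4.77 and 8.52 CPM with CoA, and 3.30, 2.82 and 1.89 CPM in Tc22 cells. All Tc22 libraries lay below all others. The log2 fold change was -1.99 against Tc0 (SE 0.28, adjusted p = 0.00447) and -1.35 against Tc0 with CoA (SE 0.28, adjusted p = 0.00630), both of which held under all 15 alternatives. Ltb, a subunit of membrane lymphotoxin, stood higher in Tc22 cells than in Tc0 cells with CoA by 2.28 (SE 0.32, adjusted p = 0.00129), also under all 15. Its rise against Tc0 was 1.42 (SE 0.31, adjusted p = 0.0339), missed with mouse out of the model (adjusted p = 0.581) and with Tc0 or Tc22 of mouse 715 or 725 left out (1.05 to 1.58, with adjusted p = 0.0518 to 0.176).

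Downstream of the receptors, 28 adaptor and signalling genes were tested. With CoA 2 rose and 3 fell, in Tc22 cells 3 rose and 0 fell (edgeR; 3 lower at an unadjusted p under 0.05, and 0 in DESeq2), and directly 8 were higher and 3 lower in Tc22 cells. With 12.5% of all genes called higher and 12% lower with CoA, 2.48% and 1.21% in Tc22 cells and 16% each directly, the list's counts with CoA lay no higher than the background. They depended on single libraries. With CoA 0 were called on leaving out Tc0 or CoA of mouse 725, and 1 without CoA of mouse 728. In Tc22 cells 1 was called without Tc0 or Tc22 of mouse 715 or 725, 12 without Tc0 and 6 without Tc22 of mouse 728, and 6 in DESeq2. The 11 direct calls became 4 to 6 without CoA of mouse 725 or 728 or Tc22 of mouse 715 or 725, and with mouse out of the model the calls numbered 2, 1 and 4.

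Birc3 (cIAP2), an ubiquitin ligase of TRAF complexes, was at 60.3 to 66.6 CPM in Tc0 cells, 52.6 to 59.3 CPM with CoA and 104 to 118 CPM in Tc22 cells. It rose in Tc22 cells by 0.85 (SE 0.10, adjusted p = 0.00295), under all 15 alternatives, and with CoA the value was -0.14 (SE 0.10, adjusted p = 0.346). Birc2 (cIAP1), its close relative, was at 94.7 to 125 CPM in Tc0 cells, 65.0 to 83.6 CPM with CoA and 148 to 176 CPM in Tc22 cells. The groups did not overlap. With CoA it fell by 0.62 on the log2 scale (SE 0.14, adjusted p = 0.0127), a call missed on leaving out Tc0 of mouse 725 or CoA of mouse 725 or 728 (adjusted p = 0.0623 to 0.0760). In Tc22 cells it did not pass against Tc0 (0.50, adjusted p = 0.0899) and was higher than with CoA by 1.12 (SE 0.14, adjusted p = 0.000872). Traf1, a TRAF adaptor, was called higher with CoA and in Tc22 cells, each against Tc0. Its level was 82.25 to 122.5 CPM in Tc0 cells, 142.2 to 154.9 CPM with CoA and 142.6 to 161.4 CPM in Tc22 cells. These Traf1 calls held under 13 and 10 of 15 alternatives.

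Of 16 NF-kB and survival genes, 8 rose and 1 fell with CoA, 7 rose and 1 fell in Tc22 cells, and directly 7 were higher and 4 lower in Tc22 cells. The medians were 0.56, 0.48 and 0.15. Of all genes tested, 12.5% rose and 12% fell with CoA, 2.48% and 1.21% in Tc22 cells, and 16% were higher and 16% lower directly. The 9 calls with CoA became 2 on leaving out Tc0 or CoA of mouse 725, 4 without Tc0 of mouse 715 and 5 without CoA of mouse 715. The 8 in Tc22 cells stayed at 7 to 10, and the 11 direct calls became 7 without Tc22 of mouse 725. With mouse out of the model the calls numbered 3, 4 and 6.

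Nfkb2, the precursor of the noncanonical subunit p52, rose in both, from 18.1 to 40.3 CPM in Tc0 cells to 55.5 to 78.8 CPM with CoA and 57.8 to 72.3 CPM in Tc22 cells. Its log2 fold changes were 1.36 (SE 0.21, adjusted p = 0.00367) and 1.32 (SE 0.21, adjusted p = 0.00906, but 0.0761 without mouse in the model), and their difference was -0.04 (95% interval -0.50 to 0.41, adjusted p = 0.891).

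Of the other NF-kB and survival genes, those higher in Tc22 cells than in either Tc0 group included Relb, Nfkbia, Tnfaip3 and Nfkbie, while Cd83 was lower. The Nfkbie call held under all 15 alternatives against Tc0 but under only 6 of 15 against Tc0 with CoA. Cd83 was at 8.16, 2.785 and 2.43 CPM in Tc22 cells. In Tc0 cells it was at 25.5, 15.6 and 11.95 CPM, and with CoA at 30.9, 38.2 and 18.5 CPM. Its call against Tc0 was missed only without mouse in the model (adjusted p = 0.134). The call against Tc0 with CoA held under all 15 alternatives. Relb, the partner of p52, was at 6.44 to 12.6 CPM in Tc0 cells, 11.96 to 14.5 CPM with CoA and 23.4 to 34.4 CPM in Tc22 cells, a log2 fold change of 1.74 in Tc22 cells (SE 0.18, adjusted p = 0.00119). Nfkbia and Tnfaip3, feedback inhibitors of the pathway, rose in Tc22 cells by 1.61 (SE 0.18, adjusted p = 0.00200) and 1.09 (SE 0.15, adjusted p = 0.00433). Against Tc0 with CoA, Relb, Nfkbia and Tnfaip3 were higher by 1.19, 0.91 and 1.19, with adjusted p = 0.00154, 0.00507 and 0.000879. These 6 calls of Relb, Nfkbia and Tnfaip3 held under all 15 alternatives. With CoA, Nfkbia was also higher than in Tc0 (0.70, SE 0.18, adjusted p = 0.0206), missed under 4 of 15 alternatives: without mouse in the model and on leaving out Tc0 of mouse 725 or CoA of mouse 715 or 725 (0.52 to 0.71, with adjusted p = 0.0568 to 0.119). Relb was near the threshold with CoA (0.55, SE 0.18, adjusted p = 0.0485), and only 5 of 15 alternatives passed (adjusted p up to 0.235, on leaving out Tc0 of mouse 725). Tnfaip3 did not pass there (-0.09, adjusted p = 0.688). Bcl2l1, the gene of the survival protein Bcl-xL, rose with CoA by 0.91 (SE 0.18, adjusted p = 0.00885) and was lower in Tc22 cells than with CoA by a log2 difference of -1.43 (SE 0.19, adjusted p = 0.000988). Its Tc22 value against Tc0 was -0.52 (SE 0.18, adjusted p = 0.162). Bcl2, another survival gene of the list, went the other way. It fell with CoA, from 447 to 779 CPM in Tc0 cells to 302 to 407 CPM, a call that held under 10 of 15 alternatives. In Tc22 cells Bcl2 was at 561 to 741.5 CPM, higher than with CoA under all 15.

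**Figure D4:**
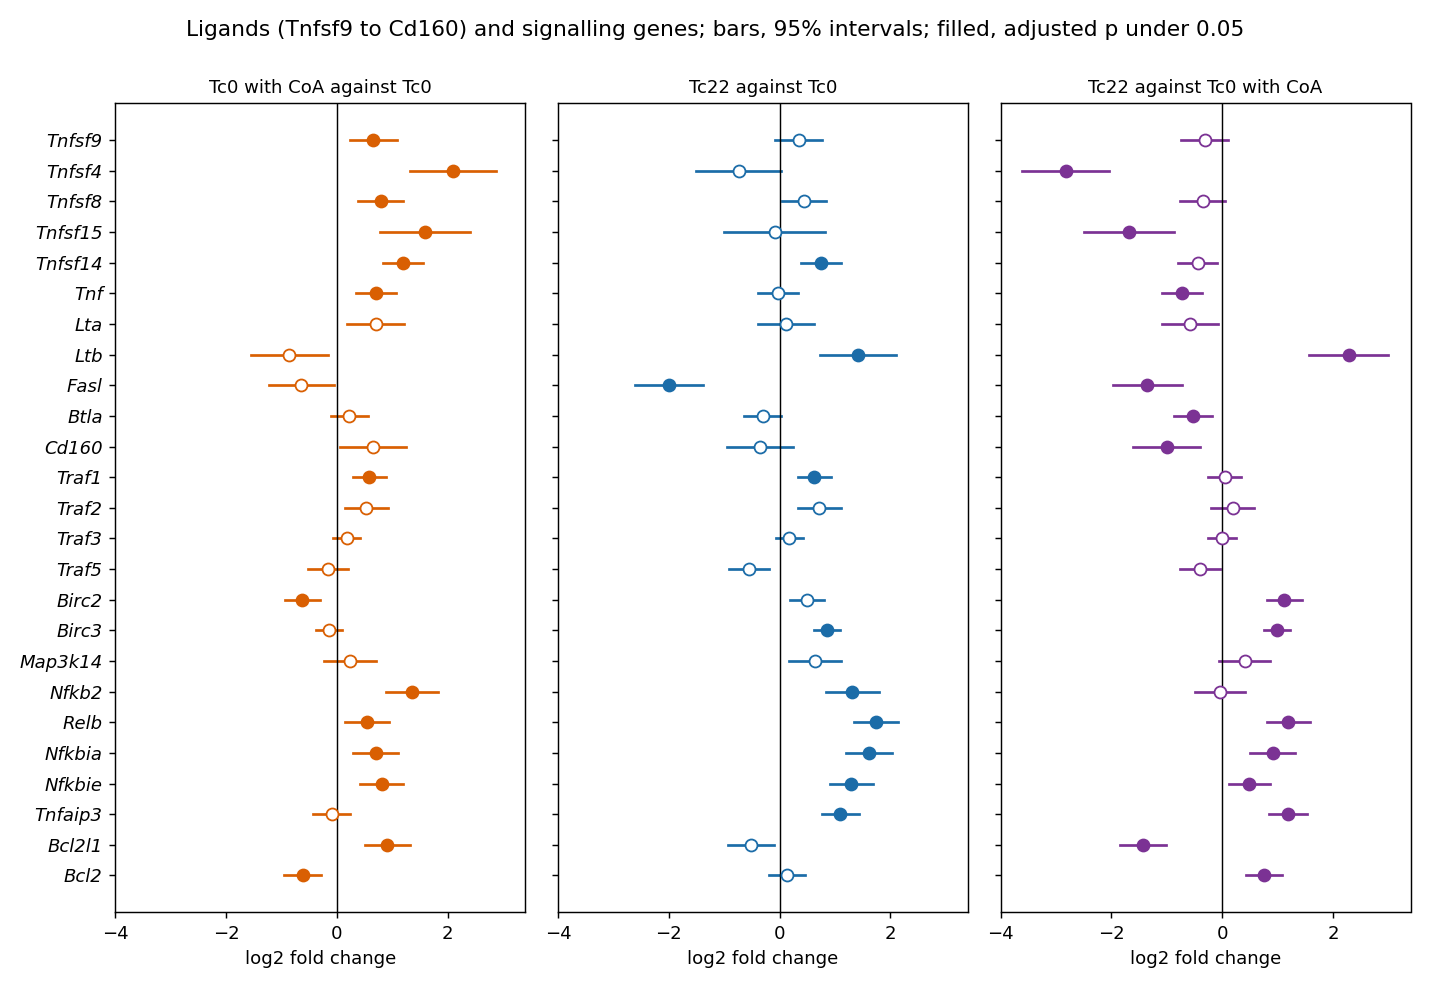
Log2 fold changes (x axes, points) with 95% intervals (bars) of ligand genes (Tnfsf9 to Cd160) and of signalling and NF-kB genes (Traf1 to Bcl2) in the 3 comparisons; filled points had an adjusted p under 0.05 in edgeR. Tnfsf4 is at 2.10 with CoA and at -2.83 between Tc22 and CoA-treated cells, and Relb is at 1.74 in Tc22 against Tc0.

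Other receptors of the superfamily, 18 listed and 13 tested, gave 5 higher and 1 lower with CoA and 0 higher and 1 lower in Tc22 cells (edgeR; 0 higher at an unadjusted p under 0.05, and 0 in DESeq2). Directly, 1 was higher and 6 were lower in Tc22 cells than in Tc0 cells with CoA (5 to 8 calls with 1 library left out). The shares of all genes called higher and lower were 12.5% and 12% with CoA, 2.48% and 1.21% in Tc22 cells and 16% each directly. The 6 calls with CoA became 2 on leaving out Tc0 of mouse 725 and 3 with mouse out of the model. The single call in Tc22 cells was Tnfrsf13b, at 45.18 to 55.86 CPM in Tc0 cells, 55.38 to 60.61 CPM with CoA and 26.62 to 39.17 CPM in Tc22 cells. That call was missed with mouse out of the model and with those groups alone. It was also missed on leaving out Tc0 or Tc22 of mouse 715 or 725 or CoA of mouse 728. Against Tc0 with CoA, Tnfrsf13b was lower in Tc22 cells under all 15 alternatives. Cd40, best known from antigen-presenting cells, was at 0.0466 to 0.220 CPM in Tc0 cells, 1.86 to 2.64 CPM with CoA and 0.0889 to 0.238 CPM in Tc22 cells, which are 1 to 7, 44 to 73 and 3 to 7 counts per library. Tnfrsf11a (RANK) was at 0.140 to 0.409, 1.11 to 1.71 and 0.160 to 0.272 CPM in the same order, from 3 to 13, 25 to 45 and 5 to 8 counts. Both genes passed the low-count filter through their CoA libraries, so their values are given as a description, without a fold change or test. Both are among the 5 called higher with CoA and among the 6 called lower directly. Those counts are a description too and are not weighed against the shares.

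Because GITR, OX40 and 4-1BB are also carried by regulatory T cells, and CD40 by B cells and myeloid cells, markers of other cells were read beside these results. Foxp3 was at 0.193 to 0.606 CPM and Cd4 at 0.140 to 0.633 CPM in Tc0 cells, 0.289 to 1.15 CPM with CoA and 0.714 to 1.38 CPM in Tc22 cells. Cd4 passed in Tc22 against Tc0 (1.59, adjusted p = 0.0484), which 11 of 15 alternatives did not (adjusted p up to 0.486). The list of 7 CD4+ and regulatory T cell markers, which holds the activation genes Il2ra and Ctla4, summed to 935 to 1156 CPM in Tc0 cells, 828 to 971 CPM with CoA and 979.8 to 1157 CPM in Tc22 cells, with none at 0 counts in a whole group. The 8 B cell markers summed to 22.8 to 50.3, 41.2 to 48.2 and 39.9 to 83.7 CPM, with 5 of them under the low-count filter and 1 at 0 in Tc22 cells. The 6 macrophage and monocyte markers summed to 4.50 to 6.55, 4.97 to 14.0 and 6.19 to 7.13 CPM, and the 6 dendritic cell markers to 3.73 to 5.005, 5.46 to 9.40 and 4.36 to 5.85 CPM, with 1 of these at 0 in every group. The 6 natural killer cell markers summed to 1.21 to 3.998, 0.976 to 1.82 and 4.04 to 5.24 CPM. The 5 gamma delta T cell markers summed to 134 to 181, 94.8 to 126 and 129.5 to 158 CPM. They include the T cell receptor constant segments Tcrg-C1 and Tcrg-C2, and 2 of the 5 lay under the low-count filter. The 6 granulocyte and mast cell markers summed to 0.409 to 1.26, 1.67 to 4.38 and 0.272 to 1.24 CPM. Of the 8 CD8+ T cell markers, which summed to 2138 to 2763, 1749 to 2216 and 2110 to 2633 CPM, 4 fell with CoA (the CD3 genes Cd3d, Cd3e and Cd3g, and Cd2), or 2 to 4 with 1 library left out. Lyz2 and Cd14, of 4 macrophage and monocyte markers tested, rose with CoA (0 to 4 calls with 1 library left out, and 0 with mouse out of the model). Directly, 3 of the 4 were lower and 1 higher in Tc22 cells. Cd74 rose and H2-Ab1 fell with CoA, and both rose in Tc22 cells, of 3 B cell markers tested. Of 2 granulocyte and mast cell markers tested, Mcpt8 rose with CoA and both were lower in Tc22 cells than with CoA. Cd14 and Mcpt8 reached at most 1.16 and 1.48 CPM in any library. The 7 CD4+ and regulatory T cell markers gave 2 higher and 1 lower with CoA and 2 higher in Tc22 cells. The remaining lists gave at most 1 call against Tc0. Beside these counts, 12.5% of all genes tested were called higher and 12% lower with CoA. In Tc22 against Tc0 the shares were 2.48% and 1.21%, and directly 16% each. The part of such cells in the results was not tested.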

How the data were processed

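Per the labels' protocols, RNA of activated CD8+ T cells was depleted of ribosomal RNA, made into TruSeq stranded libraries and sequenced as paired ends. The authors deposited gene counts as whole numbers in 1 table, with the same 9 columns as single files. STAR 2.5.2 and RSEM 1.3.0 and the build GRCm38 are named in the submitters' processing notes; the annotation release and strand setting were not given in the sources used here, so overlapping genes may share reads.

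Counts were filtered (filterByExpr by group), scaled by TMM and fitted with edgeR 4.0.16 (R 4.3.3) over all 9 libraries with group and mouse as terms, leaving 4 residual degrees of freedom. P-values of the quasi-likelihood F test, two-sided, were adjusted by Benjamini-Hochberg over 15348 genes, with a threshold of 0.05. Standard errors are the log2 fold change over the square root of F. The scripts were tested on simulated data. CPM per kb uses the exon union of GENCODE M21.

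The design text states that each mouse gave all populations. As a check, deviations from group means correlated with r from 0.0699 to 0.617 (mean 0.360, 9 pairs) within a mouse. Between different mice and groups r ran from -0.527 to 0.228 (mean -0.18, 18 pairs), so the ranges overlapped. Centring on group means ties these means together, so the negative mean is not separate evidence. P-values rest on how differences within a mouse varied between 3 mice, over all 3 groups in 1 fit. The spread of each gene was moderated by that of the other genes. Members and lists were chosen with earlier results of these data known. Named were the members, their ligands, listed genes past the threshold by smallest p, and the nearest profiles. Alternatives were the model without mouse, other scalings, DESeq2 1.42.0, no filter, the compared groups alone and leaving out each library, 15 in all.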

Additional observations from a re-analysis of the deposited data

How the results depend on the processing

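Without the replicate block (mouse left out of the model), the number of the 10 receptors called was 1 in place of 3 with CoA, 2 in place of 5 in Tc22 against Tc0, and 0 in place of 4 in Tc22 against Tc0 with CoA. Leaving out 1 library at a time gave 1 to 5, 2 to 5 and 0 to 5. The other scalings, DESeq2, no low-count filter and the compared groups alone stayed within 1.5 times each count. Over all genes tested, 3763, 565 and 4913 were called, and 1462, 120 and 2097 without the replicate block; Tc22 against Tc0 gave 938 in DESeq2, 1275 with no low-count filter and 2669 when Tc0 of mouse 728 was left out.

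Of 450 values of receptors under an alternative, 23 changed sign, none of them a called difference. Without the replicate block these were Tnfrsf1b with CoA (-0.028), Tnfrsf14 in Tc22 against Tc0 (-0.015) and Cd27 in Tc22 against Tc0 with CoA (0.015). With 1 library left out the ranges were -0.086 to 0.20 for Tnfrsf1b, -0.18 to 0.0093 for Fas with CoA; -0.033 to 0.25 for Tnfrsf1a, -0.20 to 0.10 for Tnfrsf1b, -0.17 to 0.13 for Fas and -0.18 to 0.58 for Tnfrsf14 in Tc22 against Tc0; and -0.40 to 0.14 for Tnfrsf8, -0.23 to 0.0060 for Tnfrsf1b, -0.27 to 0.32 for Cd27 and -0.11 to 0.20 for Fas in Tc22 against Tc0 with CoA. The cause was not tested. Tnfrsf25 rests on the fewest counts of the 10.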

Other observations

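The likeness of Tnfrsf25 and Relb was over libraries in which the group means of both were lowest in Tc0 and highest in Tc22. Pparg was the third nearest profile to Tnfrsf8 (0.28) among genes of at least 5 CPM, chosen for mention after its name was seen.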
